A study of Homo sapiens with 12 samples.

Results

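Transcripts of the SIN3-HDAC complex, a repressor complex of chromatin, were followed through 10 genes taken as a given list: SIN3A, SIN3B, HDAC1, HDAC2, SAP30, SAP18, SUDS3, BRMS1, PHF12 and RBBP4. All 10 were among the 18417 genes read on arrays from Calu-3 cells, a human line of airway epithelium long kept in culture. Each gene was read from the probe set (the group of probes summarised into 1 value) that carried its symbol alone and had the highest mean over the 12 arrays. Of these arrays, 6 carried RNA of cells given NC1, a scrambled control oligonucleotide, 3 carried RNA of cells given a small interfering RNA (siRNA) against SIN3A, and 3 carried RNA of cells given a mimic of the microRNA miR-138. All groups shared the lipid transfection reagent, and no untransfected group is among them. The labels state no dose, harvest time or arm of the mimic. The labels call the replicates biological but do not say whether they were separate cultures, so a p-value here covers spread among arrays that may be technical.

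Levels are deposited log2 values, so a difference of 1 is a doubling. Array medians over all probe sets lay between 5.09 and 5.16. NC1 replicates 1 to 3 and 4 to 6 stood apart for many genes and are given separately as NC1 1-3 and NC1 4-6. This division follows the replicate numbers, and the labels name no batch. The extraction notes speak of primary cultures where the labels name Calu-3. All 12 listed airway epithelial markers, EPCAM highest at 10.7, had mean levels above 5.28, the median of all gene values, against 2 of 8 fibroblast, 2 of 8 leukocyte, 1 of 6 endothelial, 2 of 4 basal and 0 of 6 ciliated cell markers measured. The epithelial list averaged 7.66 to 7.69 on NC1 1-3, 7.70 to 7.75 on NC1 4-6, 7.59 to 7.66 with the siRNA and 7.54 to 7.64 with the mimic. It holds CFTR, which was at -1.34 from NC1 with the siRNA (limma adjusted p = 0.000203) and -0.39 with the mimic (limma adjusted p = 0.244). With the mimic CFTR was lower at a limma adjusted p under 0.05 against NC1 4-6 and not against NC1 1-3. The median difference of the list from NC1 was 0.04 with the siRNA and -0.09 with the mimic. The part of these shifts in the results was not tested. In such bulk samples fewer cells with a transcript and less of it per cell cannot be told apart.

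SIN3A and SIN3B are scaffold proteins that do not bind DNA themselves. Repressors on DNA, such as MXD proteins paired with MAX, hold the scaffold, and the scaffold carries the deacetylases HDAC1 and HDAC2, which remove acetyl groups from histone tails. RBBP4 binds histones, and the smaller subunits stabilise the complex or steer it. The series title places the work in a microRNA network around CFTR, the chloride channel of airway epithelium. Setting the mimic beside the siRNA asks how far a microRNA and a direct knockdown of the scaffold change the same transcripts.

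The mature miR-138-5p is shown because its seed, bases 2 to 8, is what pairs with target transcripts. Capitals mark the seed.
hsa-miR-138-5p: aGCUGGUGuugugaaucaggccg
In RefSeq (GRCh38.p14) these 23 bases lie in MIR138-1 at chr3:44114234-44114256 and in MIR138-2 at chr16:56858527-56858549, both on the plus strand. Of 2370 mature names in that table, 1 carried this seed. Target sites in the transcripts were not analysed here.

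SIN3A, the scaffold and the target of the siRNA, was lower with both treatments. Its levels were 6.79, 6.71 and 6.36 on NC1 1 to 3 and 7.34, 7.16 and 7.11 on NC1 4 to 6. They were 6.17, 5.88 and 6.03 with the siRNA and 5.93, 6.05 and 6.25 with the mimic. All 6 treated arrays lay below all 6 NC1 arrays, and the arrays of both treatments overlapped. SIN3A stood at 54.2% of all NC1 with the siRNA, a difference of -0.88 log2 (limma adjusted p = 0.0111, SE 0.17). The mimic left it at 56.1%, a difference of -0.83 log2 (limma adjusted p = 0.0304, SE 0.17). Both contrasts share their control arrays, and 24 genes (0.130% of all) were called lower in both, where called means an adjusted p under 0.05 over all genes. The siRNA call was lost without siRNA 2 (adjusted p = 0.0725) or siRNA 3 (0.0615). The mimic call was lost without any 1 of the mimic arrays (0.202, 0.156 and 0.0841 for mimic 1, 2 and 3), without NC1 6 (0.0633) or without siRNA 1, 2 or 3 (0.0503, 0.0504 and 0.0524), with centred arrays (0.0512) and with only the compared groups fitted (0.088).

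Against each part of the control SIN3A was again lower, by sizes that differed with the part. With the siRNA the difference was -0.59 from NC1 1-3 (SE 0.12, limma adjusted p = 0.0104) and -1.18 from NC1 4-6 (SE 0.12, limma adjusted p = 1.24e-05). With the mimic it was -0.54 (limma adjusted p = 0.0113) and -1.13 (limma adjusted p = 4.27e-05). SIN3A was the 1 member called in the same direction against both parts, with either treatment, where 2.48% of all genes were with the siRNA and 1.03% with the mimic. Against NC1 1-3 the call was lost without siRNA 2 (adjusted p = 0.0593) or with only the compared groups fitted (0.0528) for the siRNA, and without mimic 1 for the mimic (0.0658). Mimic and siRNA differed in SIN3A by 0.05 (95% interval -0.37 to 0.47, limma adjusted p = 0.953).

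**Figure D1:**
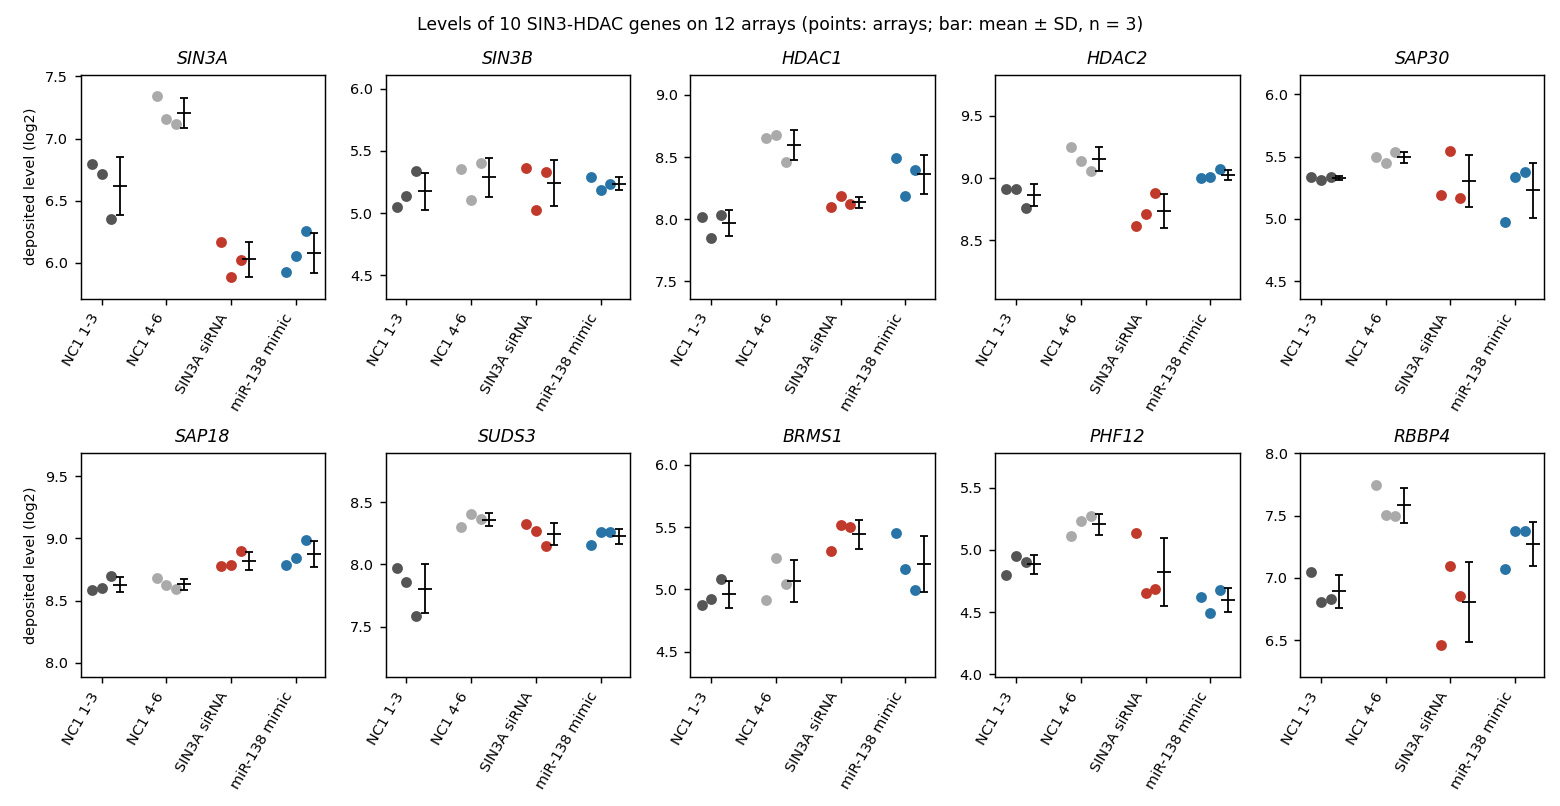
Deposited log2 levels of the 10 genes by group, 1 panel a gene, each panel spanning the same number of log2 units; points are arrays and bars are mean ± SD (n = 3). SIN3A lies between 5.88 and 6.25 on the 6 treated arrays, below every NC1 array, while the groups of SIN3B overlap.

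SIN3B, the paralogous scaffold, showed no detectable difference with either treatment. Its levels spanned 5.05 to 5.40 on the NC1 arrays, 5.03 to 5.37 with the siRNA and 5.18 to 5.29 with the mimic, and all groups overlapped. The difference from NC1 was 0.01 with the siRNA (95% interval -0.20 to 0.23, limma adjusted p = 0.977). With the mimic it was 0.004 (95% interval -0.21 to 0.22, limma adjusted p = 0.998). Its mean of 5.23 lay below the mean of the median gene (5.29), as did those of BRMS1 (5.17) and PHF12 (4.88), and arrays understate changes of dim probe sets.

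HDAC1, a catalytic subunit, changed sign with the part of the control. Its levels were 8.02, 7.85 and 8.04 on NC1 1 to 3, and 8.65, 8.68 and 8.46 on NC1 4 to 6. With the siRNA they were 8.10, 8.19 and 8.12, and with the mimic 8.50, 8.19 and 8.40. Every treated array lay above NC1 1-3, and all but mimic 1 lay below NC1 4-6. The siRNA difference was 0.17 from NC1 1-3 (limma adjusted p = 0.391) and -0.46 from NC1 4-6 (SE 0.10, limma adjusted p = 0.00589). The mimic difference was 0.39 from NC1 1-3 (SE 0.10, limma adjusted p = 0.0214) and -0.24 from NC1 4-6 (limma adjusted p = 0.321). The mimic call against NC1 1-3 was lost without NC1 2 (adjusted p = 0.0891), mimic 1 (0.109) or mimic 3 (0.0835), after a second quantile normalization (0.226) and with only the compared groups fitted (0.0701). Against NC1 4-6 the mimic difference passed with weighted arrays (-0.30, adjusted p = 0.025). Against all NC1, HDAC1 was at -0.15 with the siRNA and 0.08 with the mimic (limma adjusted p = 0.751 and 0.921).

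HDAC2, the other catalytic subunit, was lowest with the siRNA. Its levels were 8.91, 8.91 and 8.76 on NC1 1 to 3, and 9.25, 9.14 and 9.06 on NC1 4 to 6. They were 8.61, 8.71 and 8.88 with the siRNA and 9.00, 9.01 and 9.07 with the mimic. The siRNA arrays overlapped NC1 1-3 and lay below NC1 4-6 and below the mimic arrays. The siRNA difference was -0.42 from NC1 4-6 (SE 0.09, limma adjusted p = 0.00716) and -0.13 from NC1 1-3 (limma adjusted p = 0.499). From all NC1 it was -0.27 (95% interval -0.49 to -0.05, limma adjusted p = 0.184). That contrast passed after a second quantile normalization (-0.30, adjusted p = 0.0376) and with weighted arrays (-0.34, adjusted p = 0.0295). The mimic was 0.29 above the siRNA (95% interval 0.04 to 0.55, limma adjusted p = 0.270).

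RBBP4, a histone-binding subunit that SIN3 shares with NuRD, PRC2 and CAF-1, had the widest range after SIN3A, 1.29 log2 over the 12 arrays. Its levels were 7.05, 6.80 and 6.83 on NC1 1 to 3, and 7.75, 7.50 and 7.49 on NC1 4 to 6. They were 6.46, 7.10 and 6.86 with the siRNA and 7.07, 7.37 and 7.38 with the mimic. The siRNA arrays enclosed those of NC1 1-3, and the mimic arrays lay between both parts of the control. The siRNA difference was -0.78 from NC1 4-6 (SE 0.14, limma adjusted p = 0.00154) and -0.09 from NC1 1-3 (95% interval -0.39 to 0.21, limma adjusted p = 0.798). The mimic was at 0.38 from NC1 1-3 and -0.31 from NC1 4-6 (limma adjusted p = 0.120 and 0.385). From all NC1 RBBP4 was at -0.43 with the siRNA (95% interval -0.86 to -0.01, limma adjusted p = 0.296) and 0.04 with the mimic (95% interval -0.39 to 0.46, limma adjusted p = 0.977). RefSeq lists pseudogenes of RBBP4, SAP18 and SUDS3, so their probe sets may read near-identical copies too.

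BRMS1, a subunit first described as a suppressor of metastasis, was higher with the siRNA. Its levels were 4.87, 4.92 and 5.08 on NC1 1 to 3, and 4.92, 5.25 and 5.04 on NC1 4 to 6. They were 5.31, 5.52 and 5.50 with the siRNA and 5.45, 5.16 and 5.00 with the mimic. Every siRNA array stood higher than every NC1 array, and the mimic arrays overlapped both groups. The siRNA difference was 0.43 (SE 0.11, limma adjusted p = 0.0392), a 1.34-fold rise seen on 3 of 3 arrays. It was 0.48 from NC1 1-3 (limma adjusted p = 0.0274) and 0.37 from NC1 4-6 (limma adjusted p = 0.0579). The call against all NC1 was lost without any 1 siRNA array (highest adjusted p = 0.179), without NC1 1, 2, 4 or 6 (highest 0.0706) or without mimic 2 (0.0593). Against NC1 1-3 it was lost without NC1 1 or 2 (0.0611 and 0.0818) or siRNA 2 or 3 (0.107 and 0.0976), and against NC1 4-6 it was gained without NC1 3, NC1 5 or mimic 1 (0.0468, 0.0421 and 0.0378). The call against NC1 4-6 was also gained after a second quantile normalization (0.0444), with centred arrays (0.0499) and with only the compared groups fitted (0.0487). The mimic difference was 0.19 (95% interval -0.04 to 0.42, limma adjusted p = 0.559), and mimic and siRNA differed by -0.24 (95% interval -0.50 to 0.03, limma adjusted p = 0.439).

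SUDS3, which helps to hold the deacetylases on the scaffold, was low on NC1 1-3. Its levels were 7.97, 7.86 and 7.59 there, 8.30, 8.41 and 8.36 on NC1 4-6, 8.32, 8.27 and 8.15 with the siRNA, and 8.16, 8.26 and 8.26 with the mimic. Both treated groups lay above NC1 1-3, and the mimic arrays also lay below NC1 4-6. SUDS3 was higher than on NC1 1-3 with the siRNA (0.44, SE 0.10, limma adjusted p = 0.0172) and likewise under the mimic (0.42, SE 0.10, limma adjusted p = 0.0152). From NC1 4-6 it was at -0.11 and -0.13 (limma adjusted p = 0.604 and 0.743). The siRNA call was lost without NC1 3 (adjusted p = 0.0547), siRNA 1 (0.0705) or siRNA 2 (0.0645), or with only the compared groups fitted (0.0973). The mimic call was lost without NC1 3 (0.0574), mimic 2 (0.0638) or mimic 3 (0.0649), after a second quantile normalization (0.0982) and with only the compared groups fitted (0.0642). A further probe set with this symbol alone averaged 6.02 ± 0.22 on NC1 1-3, 6.53 ± 0.20 on NC1 4-6, 6.51 ± 0.11 with the siRNA and 6.59 ± 0.005 with the mimic (SD, n = 3), with NC1 1-3 again lowest.

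SAP18, which also serves in the ASAP complex of RNA processing, had the narrowest range on the NC1 arrays, 0.11 log2. Its levels were 8.58, 8.60 and 8.69 on NC1 1 to 3, 8.68, 8.62 and 8.59 on NC1 4 to 6, 8.77, 8.78 and 8.90 with the siRNA, and 8.79, 8.84 and 8.99 with the mimic. In these deposited values all 6 treated arrays lay above all 6 NC1 arrays. After a second quantile normalization NC1 4-6 was at -0.17 from NC1 1-3 (limma adjusted p = 0.292), so the closeness of the NC1 arrays depends on the normalization. The differences were 0.19 with the siRNA (95% interval 0.04 to 0.34, limma adjusted p = 0.188) and 0.24 with the mimic (95% interval 0.09 to 0.40, limma adjusted p = 0.149), and neither passed over all genes. With weighted arrays the mimic difference did (0.26, adjusted p = 0.0478).

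PHF12, a PHD finger protein of SIN3 complexes, was lowest with the mimic. Its levels were 4.80, 4.95 and 4.90 on NC1 1 to 3, 5.11, 5.23 and 5.27 on NC1 4 to 6, 5.14, 4.65 and 4.68 with the siRNA, and 4.62, 4.49 and 4.67 with the mimic. The mimic arrays lay below all NC1 arrays, whereas siRNA 1 lay among NC1 4-6, apart from siRNA 2 and 3. The mimic difference was -0.61 from NC1 4-6 (SE 0.12, limma adjusted p = 0.00575), a call kept whichever array was left out, and -0.29 from NC1 1-3 (limma adjusted p = 0.155). From all NC1 it was -0.45 (95% interval -0.71 to -0.18, limma adjusted p = 0.124), which passed with weighted arrays (-0.49, adjusted p = 0.0239). The siRNA difference was -0.38 from NC1 4-6 (limma adjusted p = 0.0437) and -0.06 from NC1 1-3 (limma adjusted p = 0.840). The siRNA call was lost without NC1 2, 4, 5 or 6, siRNA 2 or 3, or any 1 mimic array (highest adjusted p = 0.194), with centred arrays (0.0511) and with only the compared groups fitted (0.0885).

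SAP30, a bridging subunit, passed in no comparison. Its levels spanned 5.31 to 5.54 on NC1, 5.17 to 5.54 with the siRNA and 4.98 to 5.38 with the mimic, and these ranges overlapped. The mimic arrays lay below those of NC1 4-6 (-0.27, 95% interval -0.51 to -0.02, limma adjusted p = 0.351) and overlapped those of NC1 1-3 (-0.10, limma adjusted p = 0.687). The siRNA arrays overlapped both parts (-0.03 from NC1 1-3 and -0.19 from NC1 4-6, limma adjusted p = 0.937 and 0.377). The difference from NC1 was -0.11 with the siRNA (95% interval -0.34 to 0.12, limma adjusted p = 0.703) and -0.18 with the mimic (95% interval -0.41 to 0.05, limma adjusted p = 0.585).

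Counted over the list, 2 of 10 members were called with the siRNA against all NC1, SIN3A lower and BRMS1 higher, where 4.01% of all genes were called (2.35% higher, 1.66% lower). With the mimic 1 of 10 was called, SIN3A, where 1.04% of all genes were (0.641% higher, 0.402% lower). SIN3A, itself the target of the siRNA, is in these counts and in those below, so its siRNA call says nothing of the other members. Apart from SIN3A, BRMS1 alone was called with the siRNA and no member with the mimic. Arrays did not overlap with NC1 for 3 of 10 members with the siRNA (SIN3A, SAP18 and BRMS1; 9.02% of all genes) and for 3 of 10 with the mimic (SIN3A, SAP18 and PHF12; 6.42%). The members' median difference was -0.13 with the siRNA and 0.03 with the mimic, beside -0.01 and -0.01 for all genes. 

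The parts of the control differed from each other in several subunits. In the deposited values the mean of each of the 10 members was higher on NC1 4-6 than on NC1 1-3, from 0.005 for SAP18 (95% interval -0.18 to 0.19) to 0.69 for RBBP4 (SE 0.14, limma adjusted p = 0.00440). HDAC1 (0.63, SE 0.10, limma adjusted p = 0.000610), SIN3A (0.58, SE 0.12, limma adjusted p = 0.00574) and SUDS3 (0.55, SE 0.10, limma adjusted p = 0.00184) passed as well. That made 4 of 10 called higher and 0 lower in limma, where 6.86% of all genes were called higher and 3.18% lower. At an unadjusted p under 0.05 there were 6 higher and 0 lower, and the share of all genes at that threshold was not counted. These 4 calls were kept whichever array was left out, and HDAC2 (0.29, limma adjusted p = 0.0629) passed without NC1 6 (0.0468) and PHF12 (0.32, limma adjusted p = 0.0990) without siRNA 1 (0.0336). HDAC2 also passed without dim genes (0.0355), with another variance model (0.0317) and with weighted arrays (0.0432). NC1 4-6 lay wholly above NC1 1-3 for 7 of 10 members, with HDAC2, SAP30 and PHF12 beside the 4, where 12.0% of all genes did. The members' median was 0.30, beside -0.02 for all genes. After a second quantile normalization SAP18 turned to -0.17 between the parts (limma adjusted p = 0.292), so the members no longer all pointed the same way.

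**Figure D2:**
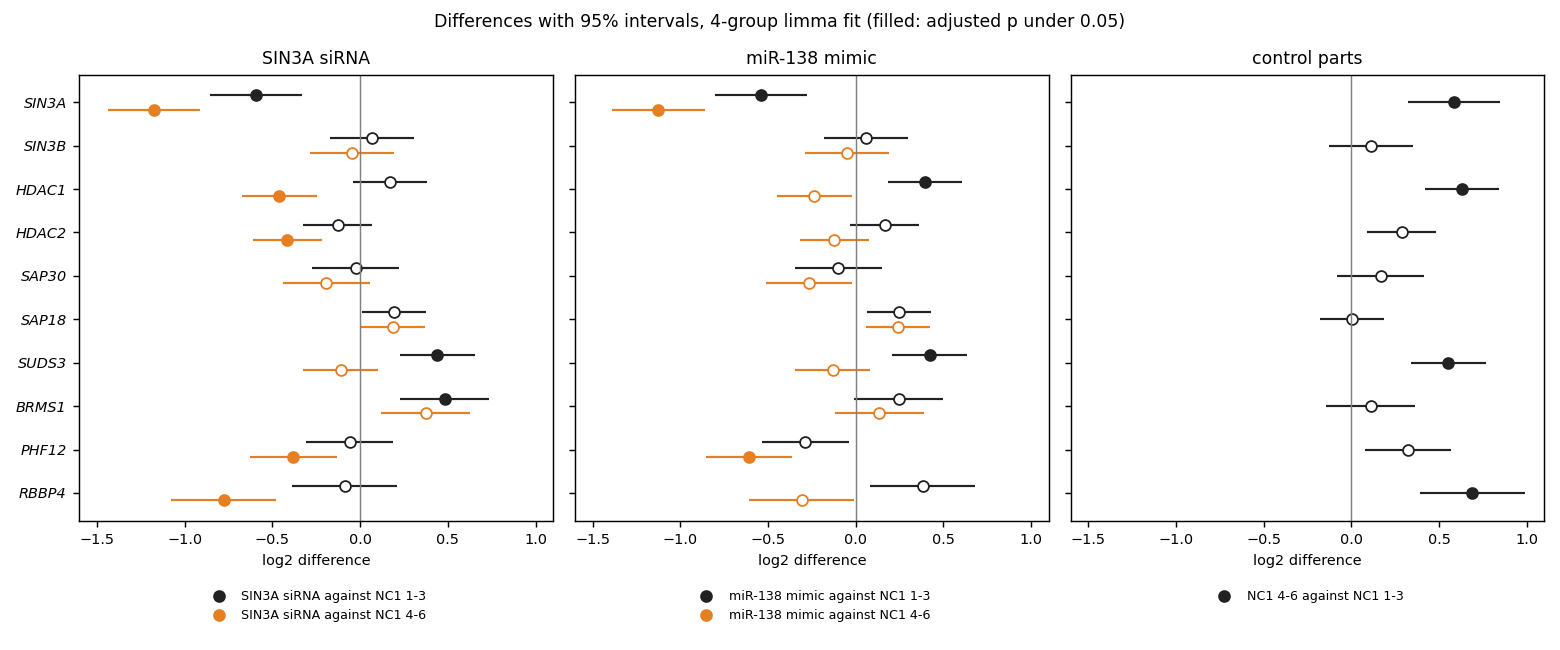
Log2 differences of the 10 genes with 95% intervals from the limma fit with 4 group means: each treatment against NC1 1-3 and NC1 4-6, and NC1 4-6 against NC1 1-3. Filled symbols have an adjusted p under 0.05. SIN3A is called on the same side of 0 against both parts, and between the parts all 10 points lie above 0.

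The count of members called with a treatment therefore moved with the part used as control. With the siRNA 3 of 10 were called against NC1 1-3 (SIN3A lower, SUDS3 and BRMS1 higher), where 5.70% of all genes were (3.66% higher, 2.04% lower). Against NC1 4-6 there were 5 of 10, all lower (SIN3A, RBBP4, HDAC1, HDAC2 and PHF12), where 11.4% of all genes were called and 6.28% were called lower. With the mimic 3 of 10 were called against NC1 1-3 (SIN3A lower, SUDS3 and HDAC1 higher), where 8.55% of all genes were (6.01% higher, 2.54% lower). Against NC1 4-6 there were 2 of 10 (SIN3A and PHF12, both lower), where 3.49% were (1.89% lower). SIN3A, the target of the siRNA, is in each of these counts.

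**Figure D3:**
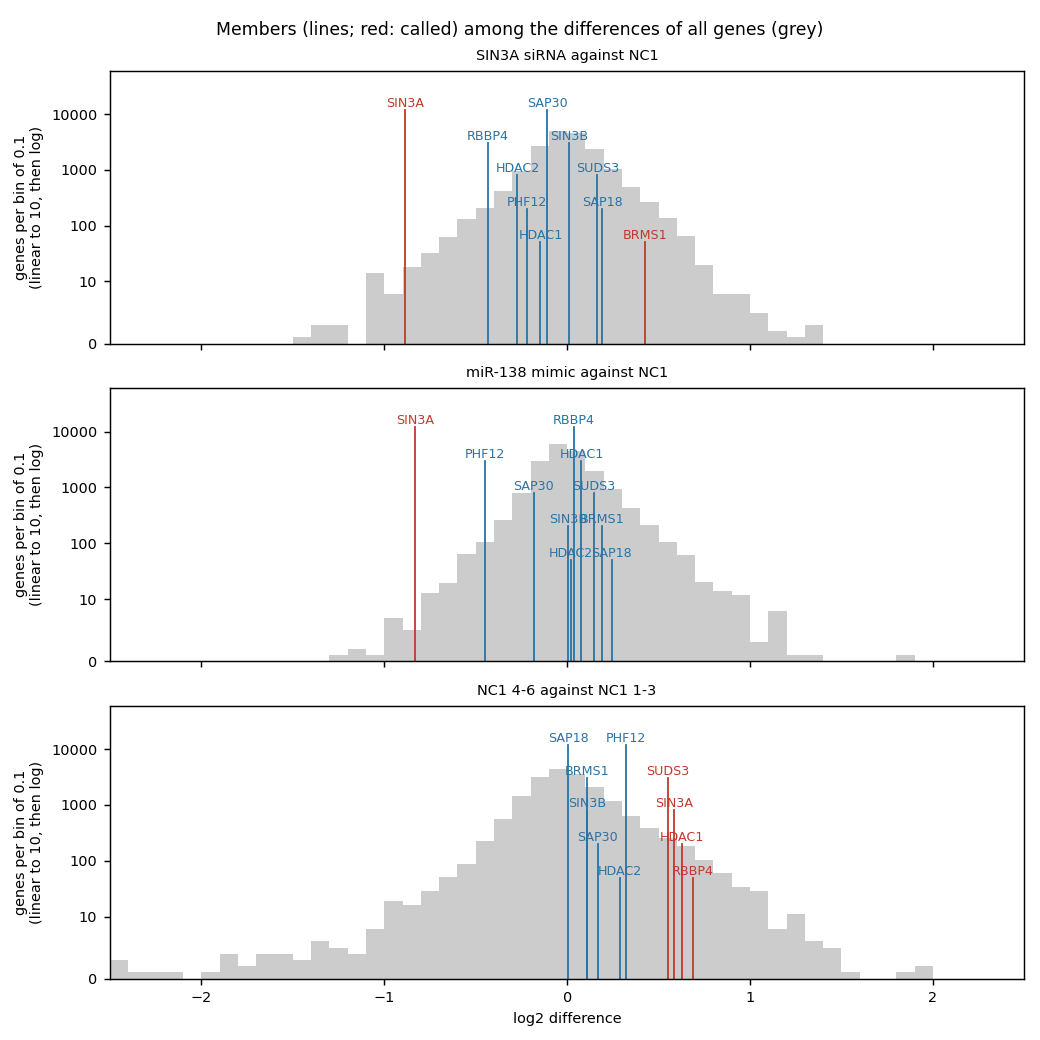
Log2 differences of all 18417 genes in bins of 0.1 (grey; the vertical axis, genes per bin, is linear to 10 and logarithmic above) and of the 10 members (lines, red where called); line height has no meaning, and genes beyond the frame are in the outermost bins. Members reach from -0.88 to 0.43 with the siRNA and from -0.83 to 0.24 with the mimic against all NC1, and SIN3A is the lowest member in both.

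In the direct comparison of mimic and siRNA 0 of 10 members were called by limma, where 1.57% of all genes were, and HDAC2 alone had an unadjusted p under 0.05. The differences ran from -0.24 for BRMS1 to 0.47 for RBBP4 (95% interval -0.02 to 0.96). The effects were also subtracted, the mimic taken against NC1 4-6 and the siRNA against NC1 1-3, as the arrays follow each other in the sample list. The labels do not state that pairing. SUDS3 was the 1 of 10 called there (-0.57, SE 0.14, limma adjusted p = 0.0490), where 2.09% of all genes were (1.19% lower). Its call was lost without any 1 array other than NC1 1 (highest adjusted p = 0.132), after a second quantile normalization (0.0527), with centred arrays (0.0646) and with the mean of all probe sets of a gene (0.0990). SIN3A was at -0.53 (95% interval -0.90 to -0.16, limma adjusted p = 0.159) and PHF12 at -0.55 (limma adjusted p = 0.114). This subtraction contains the difference of NC1 4-6 from NC1 1-3, which was 0.58 for SIN3A and 0.32 for PHF12. Mimic and siRNA themselves differed by 0.05 in SIN3A and by -0.23 in PHF12.

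The 100 bases before annotated starts are shown for the 4 members called between the parts of the control, SIN3A, HDAC1, RBBP4 and SUDS3, and for BRMS1, which was called with the siRNA. They are from RefSeq (GRCh38.p14), whose table matched 9 of the 10 members. Both starts of SIN3A and the first of RBBP4 are shown. Capitals mark CCAAT, the box bound by NF-Y, and GGGCGG, the GC box bound by SP factors, on either strand.
SIN3A at chr15:75451691-75451790 (minus strand): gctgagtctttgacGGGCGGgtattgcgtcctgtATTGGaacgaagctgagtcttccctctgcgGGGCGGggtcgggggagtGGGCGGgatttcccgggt
SIN3A at chr15:75455816-75455915 (minus strand): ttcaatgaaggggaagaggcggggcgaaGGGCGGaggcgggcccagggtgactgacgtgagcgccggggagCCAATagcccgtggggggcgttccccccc
HDAC1 at chr1:32291983-32292082 (plus strand): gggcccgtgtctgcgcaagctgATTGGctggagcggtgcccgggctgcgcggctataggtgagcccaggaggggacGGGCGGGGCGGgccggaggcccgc
RBBP4 at chr1:32651108-32651207 (plus strand): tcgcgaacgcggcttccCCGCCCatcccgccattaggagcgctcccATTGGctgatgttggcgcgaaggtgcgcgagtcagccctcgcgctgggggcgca
SUDS3 at chr12:118376455-118376554 (plus strand): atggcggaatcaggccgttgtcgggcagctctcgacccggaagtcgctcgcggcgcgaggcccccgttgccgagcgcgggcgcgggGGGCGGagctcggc
BRMS1 at chr11:66345105-66345204 (minus strand): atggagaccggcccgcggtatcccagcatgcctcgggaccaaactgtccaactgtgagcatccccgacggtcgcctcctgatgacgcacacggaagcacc
Both SIN3A windows, that of HDAC1 and the RBBP4 window shown hold each motif, SUDS3 holds GGGCGG alone, and BRMS1 holds neither. The second RBBP4 window, not shown, holds neither. Of the other members not shown, SIN3B holds CCAAT, SAP30 holds GGGCGG, and HDAC2 and PHF12 hold neither. In HDAC1 a pair of GGGCGG matches overlap. Of 35116 windows of this length in the table, 18.06% hold CCAAT and 31.31% hold GGGCGG. Of the members' 11 windows, 5 hold CCAAT and 6 hold GGGCGG. A match is a run of letters and does not show a site in use.

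The genes whose 12 values, each centred on its own mean, came closest to SIN3A were RARB, a retinoic acid receptor (root mean square difference 0.13 log2), and RERGL (0.15). E2F8, a cell-cycle transcription factor, RMI1, a DNA repair factor, and SKP2, a ubiquitin ligase subunit, followed at 0.19 each. No other member was among these 5. RERGL was dim, with means of 4.07 on NC1 and 3.26 with the siRNA, below that of the median gene (5.29). The closest member was PHF12 (0.34, rank 233) and the farthest was BRMS1 (0.67, rank 17806).

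Among the other subunits of SIN3 complexes, 16 of 18 listed genes were measured, and 1 fell and 0 rose with the siRNA against all NC1 (5 higher and 1 lower at an unadjusted p under 0.05). Over all genes 2.35% were called higher and 1.66% lower with the siRNA by adjusted p. Here and in the lists below, the share of all genes at an unadjusted p under 0.05 was not counted, so the unadjusted counts cannot be judged against it. TET1, a 5-methylcytosine dioxygenase found with SIN3A, fell by 0.45 (SE 0.11, limma adjusted p = 0.0413). Its probe set was dim, with means of 4.50 on NC1 and 4.06 with the siRNA, below that of the median gene (5.29). Without detection calls, whether TET1 was expressed is not known. It was at -0.52 from NC1 1-3 and -0.37 from NC1 4-6 (limma adjusted p = 0.0205 and 0.0704). The call was lost without any 1 siRNA array (highest adjusted p = 0.193), without NC1 2, 4 or 6 or without mimic 2, with centred arrays (0.0544) and with only the compared groups fitted (0.0578). That against NC1 1-3 was lost without NC1 2 or 3 or siRNA 1 or 2 (highest 0.0945) or with only these groups fitted (0.0664), and against NC1 4-6 TET1 passed without NC1 1 or 3 (0.0383 and 0.0455). Against NC1 4-6 it also passed with weighted arrays (0.0262) and with only the compared groups fitted (0.0251). With the mimic TET1 was at -0.04 (limma adjusted p = 0.946). The list's median was 0.10 with the siRNA and 0.04 with the mimic. Of 16 measured factors that recruit SIN3, limma called 0 with the siRNA against all NC1 (3 at an unadjusted p under 0.05) and 0 with the mimic (1 higher and 2 lower so), with medians of 0.10 and 0.04. Of all genes 4.01% were called with the siRNA and 1.04% with the mimic. Against NC1 1-3 the siRNA had 2 subunits called higher and 1 lower, and 1 recruiting factor higher (5.70% of all genes called). Against NC1 4-6 it had 3 subunits called higher and 2 lower, and 4 recruiting factors higher (11.4%). With the mimic each list had 2 called higher and 1 lower against NC1 1-3 (8.55%). Against NC1 4-6 the mimic had 0 called in either list (3.49%).

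The deacetylase complexes that share HDAC1 and HDAC2 or are built alike gave no call against all NC1 in limma. Of all genes 4.01% were called with the siRNA and 1.04% with the mimic. At these shares, lists this short may well hold no call. For NuRD, 0 of 10 were called with either treatment (1 higher and 1 lower at an unadjusted p under 0.05 with the siRNA, 0 with the mimic). For CoREST and MiDAC, 0 of 11 were called (0 unadjusted with the siRNA, 1 higher and 1 lower with the mimic). For the NCOR and SMRT complex, 0 of 5 measured were called (1 higher and 1 lower unadjusted with each treatment). Their medians lay between -0.09 and 0.01. Against NC1 4-6 the siRNA had CHD3 and TBL1XR1 called lower, where 6.28% of all genes were. Against NC1 1-3 the mimic had PHF21A called lower and HDAC3 higher, where 2.54% and 6.01% of all genes were.

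The 16 other deacetylases listed were HDAC3, which is also in the NCOR and SMRT list, HDAC4 to HDAC11 and SIRT1 to SIRT7. Among them HDAC9, a class IIa enzyme, fell with the siRNA and 0 rose (2 higher and 2 lower at an unadjusted p under 0.05). Over all genes 2.35% were called higher and 1.66% lower. HDAC9 fell by 0.45 (SE 0.07, limma adjusted p = 0.00506), a call kept whichever array was left out. Its means on NC1 1-3 and NC1 4-6 were 6.14 and 6.13, and the siRNA differences from them were -0.46 and -0.45 (limma adjusted p = 0.00658 and 0.00288). With the mimic HDAC9 was at 0.10 (limma adjusted p = 0.703), which was 0.55 above the siRNA (SE 0.09, limma adjusted p = 0.00639). The mimic effect against NC1 4-6 and the siRNA effect against NC1 1-3, a pairing the labels do not state, differed by 0.56 (SE 0.12, limma adjusted p = 0.0275). That call was lost without any of 7 single arrays (highest 0.0942).

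Among 10 histone acetyltransferases, which add the marks that deacetylases remove, KAT2B fell with the siRNA by 0.62 (SE 0.10, limma adjusted p = 0.00506) and 0 rose (0 higher and 1 lower at an unadjusted p under 0.05). KAT2B was at -0.65 from NC1 1-3 and -0.59 from NC1 4-6 (limma adjusted p = 0.00380 and 0.00293), and its call against all NC1 was kept whichever array was left out. With the mimic it was at -0.36 (limma adjusted p = 0.134). Of 8 genes of PRC2, CAF-1 and ASAP, which share RBBP4 or SAP18 with SIN3, CHAF1B, a CAF-1 subunit, fell with the siRNA by 0.68 (SE 0.15, limma adjusted p = 0.0215), with 1 gene higher and 1 lower at an unadjusted p under 0.05. CHAF1B was at -0.40 from NC1 1-3 and -0.96 from NC1 4-6 (limma adjusted p = 0.0206 and 6.38e-06), and these parts differed by 0.56 (limma adjusted p = 0.000935). Its call against all NC1 was lost without siRNA 1, 2 or 3 (adjusted p = 0.0852, 0.0773 and 0.106) or with only the compared groups fitted (0.0591), and that against NC1 1-3 without NC1 3, siRNA 1 or siRNA 3 (0.0594, 0.0640 and 0.0756) or with only these groups fitted (0.0655). With the mimic against all NC1 limma called 0 in each of these 3 lists (1 deacetylase higher, 2 acetyltransferases lower and 1 gene of PRC2, CAF-1 and ASAP lower at an unadjusted p under 0.05). Of all genes 4.01% were called with the siRNA (1.66% lower) and 1.04% with the mimic. Against NC1 1-3 the mimic had HDAC3 called higher (6.01% of all genes) and KAT2B lower (2.54%). Against NC1 4-6 it had CHAF1B and EZH2 called lower (1.89%). Besides the genes above, the siRNA had PNN called higher against NC1 1-3 (3.66%). It had KAT6B, KAT7 and SUZ12 called lower against NC1 4-6 (6.28%).

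**Figure D4:**
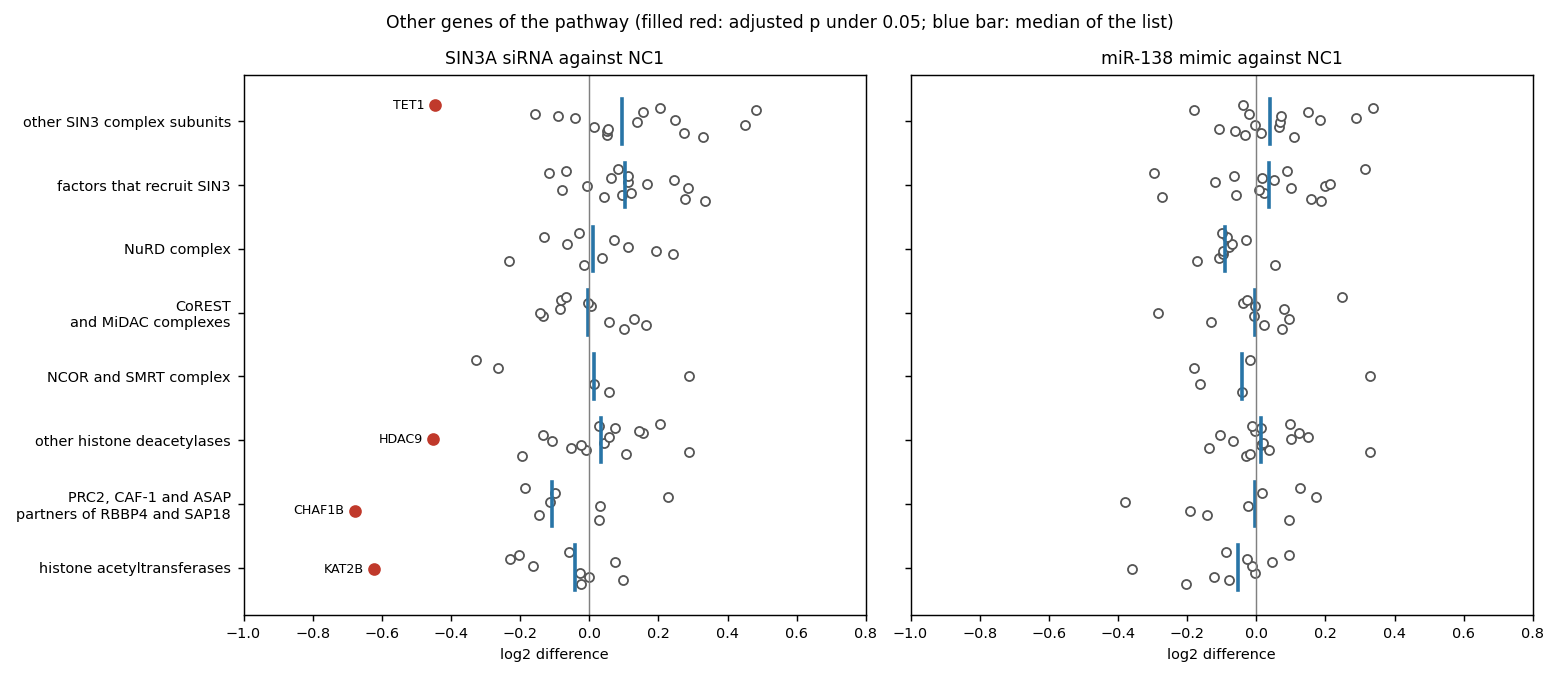
Log2 differences from all NC1 arrays of the other genes of the pathway, by list, with the siRNA and with the mimic; each symbol is a gene, filled where the adjusted p is under 0.05, and bars are list medians. TET1, HDAC9, KAT2B and CHAF1B are filled with the siRNA, from -0.68 to -0.45, and no gene is filled with the mimic.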

How the data were processed

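RNA of 12 Calu-3 samples (6 NC1, 3 SIN3A siRNA, 3 miR-138 mimic) was measured on Affymetrix arrays. The deposited log2 values, 1 per probe set and array, were used as given. The submitters' processing notes name RMA and Partek 6.3 without their roles. Of 33297 probe sets, 19460 carried 1 gene symbol, 1754 several and 12083 none in the platform annotation. Of those with 1 symbol, the brightest on average stood for its gene (18417 genes, 769 with a choice). No detection calls were used, and the number of arrays limits the precision.

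All arrays were fitted in limma 3.58.1 (R 4.3.3) with 3 group means (9 residual degrees of freedom), or with 4, NC1 1-3 and NC1 4-6 apart (8), for contrasts with a part of NC1. A fit with array set as a block (NC1 1-3 with the siRNA, NC1 4-6 with the mimic) has the same 4 parameters. P-values were Benjamini-Hochberg adjusted over all genes. Shares of all genes were counted for adjusted calls, and not for unadjusted p-values. The fit was tested on simulated data. Named were the members, up to 4 called genes of each pathway list by smallest adjusted p, and the 5 genes closest to SIN3A. The members and lists were chosen with earlier results of these data known. Alternatives changed the normalization, centring, dim genes, probe sets, variance model, array weights, arrays fitted and replicate block, and left out each array.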

Additional observations from a re-analysis of the deposited data

Results flagged for a closer look

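The effect of the mimic against NC1 4-6 and that of the siRNA against NC1 1-3 differed by test for 2 of the named genes. The labels do not state that pairing, which follows the sample order. For SUDS3 the mimic effect minus the siRNA effect was -0.57 (SE 0.14, limma adjusted p = 0.0490), with -0.13 for the mimic against NC1 4-6 and 0.44 for the siRNA against NC1 1-3. NC1 1-3 and NC1 4-6 themselves differed in SUDS3 by 0.55, and mimic and siRNA by -0.02. For HDAC9 the difference of effects was 0.56 (SE 0.12, limma adjusted p = 0.0275), with 0.10 for the mimic and -0.46 for the siRNA, while both parts of the control differed in HDAC9 by -0.01.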

How the results depend on the processing

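Leaving out 1 array at a time gave 0 to 2 members called with the siRNA against NC1, 0 to 1 with the mimic, 0 to 0 between mimic and siRNA, 0 to 3 and 4 to 6 with the siRNA against NC1 1-3 and NC1 4-6, 1 to 3 and 2 to 2 with the mimic, 4 to 5 between the parts of NC1 and 0 to 1 for the difference of effects. Without dim genes the count was 1 for the siRNA against NC1 and 1 for the mimic against NC1 4-6. With centred arrays it was 0 for the mimic against NC1 and 0 for the difference of effects. With array weights it was 3 for the mimic against NC1, 4 against NC1 4-6 and 2 for the difference of effects. With only the compared groups fitted it was 0 for the mimic against NC1, and 1 for each treatment against NC1 1-3. With a second quantile normalization it was 1 for the mimic against NC1 1-3 and 0 for the difference of effects, and with the mean of all probe sets 0 for that difference.

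Same-numbered arrays did not deviate together (correlations -0.10 to 0.03), so the numbers were not taken as pairs. With the replicate number as a block, which keeps NC1 1 to 3 alone, 2 members were called with the siRNA and 3 with the mimic against NC1. HDAC1 with the siRNA turned to 0.17 there, and BRMS1 lost its call (0.48, limma adjusted p = 0.0629).

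Values that changed sign were not called. With a second quantile normalization these were HDAC1 (-0.014), HDAC2 (-0.073) and RBBP4 (-0.030) with the mimic against NC1, HDAC2 with the mimic against NC1 1-3 (-0.0060) and SAP18 between the parts (-0.17). With array weights they were HDAC1 (-0.054), HDAC2 (-0.037) and RBBP4 (-0.070) with the mimic against NC1, and SIN3B against NC1 4-6 (0.019 with the siRNA, 0.021 with the mimic). Without single arrays SIN3B ranged from -0.050 to 0.12 with the siRNA and -0.032 to 0.037 with the mimic against NC1, -0.13 to 0.063 and -0.14 to 0.0043 against NC1 4-6, and -0.0030 to 0.14 with the mimic against NC1 1-3. With the mimic against NC1, HDAC1 ranged from -0.0085 to 0.17, HDAC2 from -0.027 to 0.071 and RBBP4 from -0.051 to 0.14. SIN3A between mimic and siRNA ranged from -0.036 to 0.13. Against NC1 1-3, SAP30 ranged from -0.15 to 0.041 with the siRNA and -0.17 to 0.028 with the mimic, and PHF12 from -0.22 to 0.027 and RBBP4 from -0.23 to 0.084 with the siRNA. SAP18 between the parts ranged from -0.019 to 0.038.

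Leaving out 1 array at a time gave 165 to 1033 genes called with the siRNA against NC1 (739 with all arrays; fewest without siRNA 3), 39 to 264 with the mimic (192; fewest without mimic 1) and 58 to 568 between mimic and siRNA (289; fewest without mimic 2). It gave 517 to 1410 and 1412 to 2492 with the siRNA against NC1 1-3 and NC1 4-6, 930 to 2105 and 363 to 836 with the mimic, 1062 to 2382 between the parts and 200 to 586 for the difference of effects. Counts over all genes also moved with array weights (739 to 1449 for the siRNA, 192 to 576 for the mimic and 289 to 1396 between them) and with only the compared groups (357, 92 and 1474). With the block 1281 genes were called with the mimic and 830 between mimic and siRNA. Against NC1 1-3, with only the compared groups, 371 were called with the siRNA (1050 otherwise) and 909 with the mimic (1575). Against NC1 4-6, with weights, 3435 were called with the siRNA (2106) and 1608 with the mimic (642). Between the parts 2883 were called with weights and 973 with only these groups (1850), and for the difference of effects 882 with weights (385). The causes were not tested.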

Other observations

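Further genes of the pathway differed between the parts of the control, and the genes below are named after their values were seen. Over all genes 6.86% were called higher on NC1 4-6 and 3.18% lower, the shares to set beside the counts that follow. Of 16 other SIN3 subunits, 3 were called higher on NC1 4-6 and 2 lower. MORF4L1, a chromodomain subunit, was 0.67 higher (SE 0.10, limma adjusted p = 0.000301), SAP130 0.37 higher and RBBP7 0.31 higher, while SAP30L was at -0.52 (limma adjusted p = 0.00785) and FOXK1 at -0.30. Of 16 recruiting factors 3 were called lower and 1 higher. MXD1 (-0.57, limma adjusted p = 0.00302), its partner MAX (-0.40) and KLF10 (-0.34) were lower, and MLX (0.32) was higher. CHAF1B (0.56), SUZ12 (0.53) and EZH2 (0.39) were the 3 of 8 called among PRC2, CAF-1 and ASAP genes, all higher.

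Some of these genes had opposite signs against the parts. MORF4L1 with the siRNA was at 0.30 from NC1 1-3 (limma adjusted p = 0.0951) and -0.38 from NC1 4-6 (limma adjusted p = 0.0185). SAP30L with the mimic was at -0.44 from NC1 1-3 (limma adjusted p = 0.0265) and 0.08 from NC1 4-6 (limma adjusted p = 0.915).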
